A study of Mus musculus with 9 samples.

Results

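After CORT, a share of the genomic binding sites of the mineralocorticoid receptor (MR) lay in dense runs. A run was defined as 5 or more MR peaks in which each summit stood at most 10 kb from the next, so runs were chosen by the measured positions of the MR peaks themselves. The MR list after CORT held 14638 MACS2 peaks, of which 14213 lay on chromosomes 1 to 19 and X, outside a block of chromosome 8 that the rule leaves out and outside the genes of both receptors. Among these 14213 peaks, 2047 (14.4%) fell into 317 runs and 12166 did not. The number of runs, their sizes and their MR peaks are therefore described and not tested. What was tested is what the rule did not use, namely the peaks of the glucocorticoid receptor (GR), the peaks left after washout, the DNA sequence and the border pairs.

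The measurements were made by ChIP-nexus in N2A cells, a mouse neuroblastoma line, transiently transfected with EGFP-GR and mCherry-MR together, so that both receptors were present in every group. GR was pulled down by its GFP tag and MR by its mCherry tag after vehicle for 20 minutes, after 20 minutes of 100 nM CORT (corticosterone), or after the same 20 minutes of CORT, washing and 40 minutes without hormone (washout). The receptors were expressed from plasmids. The published methods name rat receptors and the deposited description names mouse receptors. Each condition had 3 replicates that the authors combined before calling peaks, with input chromatin of the same treatment as background, which leaves 1 list per receptor and treatment and no replicate error. The MR and GR lists after CORT share their input. Every test below takes single peaks as units and compares peaks within these libraries.

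MR and GR are nuclear receptors that bind corticosterone, move to the nucleus and attach to the same DNA element, the glucocorticoid response element (GRE), as a pair of receptor molecules on inverted half-sites. MR binds corticosterone more tightly than GR, and in brain neurons that carry both it is held to be occupied already at low hormone levels. Enhancers bound by these receptors often lie far from promoters, and a gene can have several.

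A GRE was counted where the half-sites AGAACA and TGTTCT, separated by 3 bases, matched within 100 bp of a peak summit with at most 3 mismatches in their 12 fixed positions. The pattern reads the same on both strands, so a match is found on both. Of all 14213 MR peaks, 40.2% held such a match. In windows of the same length 2 kb away from the summits, and at least 300 bp from any MR summit, the share was 14.6% (95% Wilson interval 13.5 to 15.8) around run peaks and 15.2% (14.8 to 15.7) around the other peaks. The closest match at the strongest peak of the 5 runs with the most peaks shows how far these sites stand from the full element. Coordinates are those of GRCm38 on the plus strand, and capitals mark the 15 bases of the element.

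Run near Irf2bp2, chr8:126669675-126669719: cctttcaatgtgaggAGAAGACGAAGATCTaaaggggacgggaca
Run in Frmd4a, chr2:4572768-4572812: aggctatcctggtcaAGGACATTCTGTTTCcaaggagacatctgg
Run near Col4a1, chr8:11187194-11187238: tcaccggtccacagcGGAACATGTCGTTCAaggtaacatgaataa
Run at Gm26759, chr8:126530890-126530934: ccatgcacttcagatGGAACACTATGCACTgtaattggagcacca
Run in Slit3, chr11:35564924-35564968: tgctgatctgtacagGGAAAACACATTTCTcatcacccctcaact

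The first 4 of these sequences had 3 mismatches each and count as a GRE. The Slit3 sequence had 4 and does not. An element without a mismatch was at 4 of the 2047 run peaks (0.195%) and at 20 of the 12166 others (0.164%). The 4 in runs are printed for comparison. With them stand the closest matches at the strongest peaks of the Fkbp5 and Nfkbia runs, which both had 3 mismatches. Both sets were picked after their values were seen.

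Run near Anapc16, chr10:59974258-59974302: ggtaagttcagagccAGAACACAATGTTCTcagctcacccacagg
Run in Iqgap2, chr13:95647256-95647300: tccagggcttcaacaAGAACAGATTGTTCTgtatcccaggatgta
Run near Dusp2, chr2:127324551-127324595: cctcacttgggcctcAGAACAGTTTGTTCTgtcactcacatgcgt
Run in Slc2a3, chr6:122752842-122752886: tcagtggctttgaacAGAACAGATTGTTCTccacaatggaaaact
Run in Fkbp5, chr17:28512878-28512922: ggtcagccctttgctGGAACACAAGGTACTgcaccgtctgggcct
Run in Nfkbia, chr12:55492007-55492051: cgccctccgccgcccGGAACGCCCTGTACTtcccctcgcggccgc

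The peaks over the 4 complete elements ranged widely in strength. Their −log10 p, the significance of a peak against input, was 27.9 near Anapc16, 8.02 in Iqgap2, 13.7 near Dusp2 and 9.17 in Slc2a3. The Anapc16 peak overlapped a GR peak and an MR washout peak, the Iqgap2 peak a GR peak only, and the peaks near Dusp2 and in Slc2a3 an MR washout peak only. The Anapc16 peak also overlapped an MR peak called after vehicle. A match is a resemblance of letters and does not show which protein was bound.

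Some runs stood apart from the rest. In 10 of the 317 runs, with 85 MR peaks, the span held a peak of either receptor after vehicle or a border pair of the CORT input. An input border pair is a pair of read borders called in chromatin without any pulldown. In 7 of these 10 the span held 1 such feature. The other 3 together held 162 of the 168 input border pairs found in run spans, 21 GR peaks and 8 MR peaks after vehicle, and no GRE at any of their 27 peaks. They lie at chr9:3000108-3036419 (11 peaks, over Gm10722 and like predicted genes), chr14:19415779-19419695 (10 peaks, over Gm21738) and chr2:98662853-98667278 (6 peaks, over Gm10800 and Gm10801). All 3 held peaks of both receptors in vehicle-treated cells, and they are called input-rich runs below. Results that rest on them are given with and without them.

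The depth of the libraries is unknown from lists of peaks. The lists differed in length, with 10602 GR peaks after CORT, 4885 MR peaks and 246 GR peaks after washout, and 73 MR and 64 GR peaks after vehicle. Where a list lacked a site, binding there was below what its depth and threshold could show, which is not the same as no binding. The −log10 p also depends on depth and is compared here only within a list. Intervals on percentages are 95% Wilson intervals and cover counting error only.

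Runs held from 5 to 17 peaks, with a median of 6. There were 146 runs of 5 peaks, 61 of 6, 41 of 7, 35 of 8 and 34 of 9 or more. Just outside the rule stood 271 chains of 4 peaks. The largest distance between neighbouring summits inside a run was 9998 bp, and the smallest at the end of a run was 10260 bp. Run spans had a median of 11.0 kb, from 0.63 to 48.5 kb, and covered 3.94 Mb in all.

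Peaks within runs were often far closer than the limit of 10 kb. The median distance between neighbouring summits was 800.5 bp, and 924 of the 1730 distances (53.4%) were under 1 kb. When summits at most 500 bp apart were taken as 1 site, the runs held a median of 4 sites, from 1 to 12, and 107 runs held 5 or more. At the other end, 9 runs were a single such stretch and 36 held 2. A count of peaks in a run is therefore not a count of separate binding sites, and the tests below were repeated with the strongest peak of each stretch only.

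The runs with the most peaks are shown in the map of peak summits. The 17 peaks at chr8:126661350-126687582 lay in no gene, 67363 bp from Irf2bp2, which encodes a transcriptional corepressor. GR peaks overlapped 15 of them and MR washout peaks 9. Another 17 peaks lay in Frmd4a (chr2:4572390-4608105), a scaffold protein gene linked to cell polarity, where 16 summits were intronic and 1 exonic. GR overlapped 10 of these and MR washout 5.

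The third run of 17 peaks, at chr8:11156160-11197438, lay 984 bp from Col4a1, which encodes a chain of the type IV collagen of basement membranes. GR overlapped 12 of its peaks and MR washout 4. A run of 11 peaks lay inside Col4a1 itself (chr8:11250208-11272261), 52.8 kb farther along. There GR overlapped 6 peaks and MR washout 7. In that run the MR washout count was the higher one, while near the gene the GR count was.

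A run of 16 peaks at chr8:126523089-126571567 came 89.8 kb before the first run, with the noncoding Gm26759 beside it and Irf2bp2 as the nearest coding gene at 16728 bp. GR overlapped 10 of its peaks and MR washout 4. These runs on both sides of Irf2bp2 held 33 MR peaks together, and the map shows MR washout peaks in only parts of both.

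**Figure D1:**
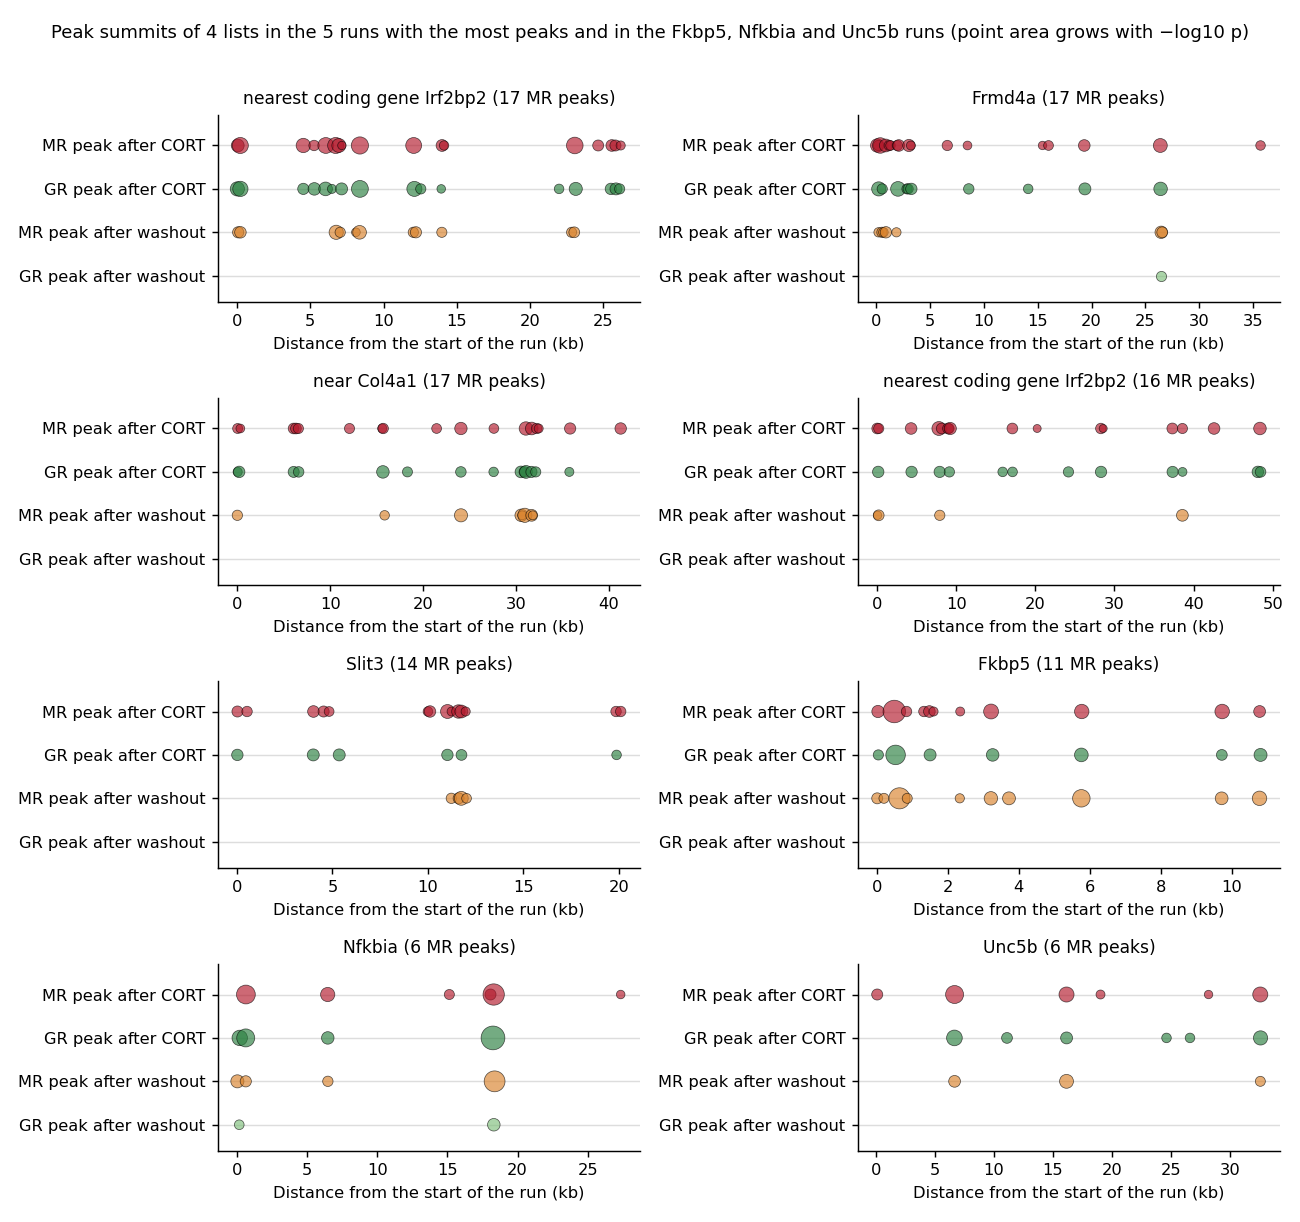
Peak summits of MR and GR after CORT and after washout in the 5 runs with the most peaks and in the runs at Fkbp5, Nfkbia and Unc5b, by distance from the start of the run in kb. Each point is 1 summit, its area grows with −log10 p within its list, and areas are not comparable between lists. Most MR peaks have a GR peak after CORT beside them, fewer have an MR washout peak, and in these 8 runs GR washout peaks are found in Frmd4a and Nfkbia.

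Prkca, the gene of protein kinase C alpha, held 13 intronic peaks at chr11:108218322-108238382. GR overlapped 11 of these, MR washout 6, and a GRE was at 7.

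Other runs among the 15 with the most peaks had 11 to 13 peaks. At chr2:93351431-93372720, 16925 bp from the tetraspanin gene Tspan18, GR overlapped 6 of 13 peaks and MR washout 3, and the median distance between summits was only 210 bp. At chr8:10682634-10706510, beside the noncoding Gm44785 and Gm44786, GR overlapped 5 of 12 peaks and MR washout 1. In the run across Rprd1b and Tgm2 (chr2:158117323-158138298), the latter the gene of tissue transglutaminase, GR overlapped 8 of 11 peaks and MR washout 6. At chr8:10897924-10930099, among noncoding genes such as Gm2814, GR and MR washout each overlapped 3 of 11 peaks. The input-rich run on chromosome 9 and the Fkbp5 run also had 11 peaks each. Over the runs described so far the part overlapped by GR went from 3 of 11 peaks to 15 of 17.

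Fkbp5 encodes a cochaperone of the receptor complex and is among the best known glucocorticoid-induced genes. Its run, chr17:28512415-28523219, held 11 MR peaks in 10.8 kb around the start of the gene, with 8 summits in introns, 1 in an exon and 2 outside genes. The strongest, 1554 bp from a coding transcript start, had a −log10 p of 49.7 in the MR list after CORT, 43.6 in the MR washout list and 37.0 in the GR list after CORT. GR overlapped 9 of the 11 peaks, MR washout 8, and 7 peaks had both. No GR washout peak lay in the span. The peaks without an MR washout partner had −log10 p of 6.54 to 11.98 and stood together 1.33 to 1.6 kb from the start of the run.

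Nfkbia encodes the NF-κB inhibitor IκBα, another gene induced by glucocorticoids. The run around it, chr12:55473723-55501073, had 6 peaks, of which GR overlapped 4 and MR washout 3. Its strongest peak lay in an intron, 209 bp from a coding transcript start, with a −log10 p of 44.5 in the MR list. That peak was also in the GR list after CORT (55.7), the MR washout list (42.5) and the GR washout list (14.2). It is 1 of 2 places in this run that overlapped GR after washout, the other being the first peak of the run. At 26.6 kb from it lay a run of 7 peaks nearest to the proteasome subunit gene Psma6, in which GR overlapped all 7, MR washout 3 and GR washout 1.

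Peaks in runs overlapped GR after CORT more often than the other MR peaks. Of the 2047 run peaks, 1227 (59.9%, 57.8 to 62.0) overlapped a GR peak by at least 1 bp, against 5485 of 12166 others (45.1%, 44.2 to 46.0), where the share over all MR peaks was 47.2%. The odds ratio was 1.82 (two-sided Fisher's exact test, adjusted p = 8.21e-35 over 6 shares by the method of Benjamini and Hochberg). By this measure 1 GR peak can count for several MR peaks. With summits at most 50 bp apart, the shares were closer, 36.9% in runs and 32.1% outside. The odds ratio was then 1.24 (Fisher's exact test, adjusted p = 4.26e-05). All but 2 run spans held a GR peak, and the spans held 1257 in all, with a median of 4 and a maximum of 16. In 92 runs (29.0%) GR overlapped at least 75% of the MR peaks, and in 28 (8.83%) under 25%.

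MR peaks in runs were also found more often after washout. An MR washout peak overlapped 638 run peaks (31.2%, 29.2 to 33.2) and 2818 other peaks (23.2%, 22.4 to 23.9), and 24.3% of all MR peaks. The odds ratio was 1.50 (Fisher's exact test, adjusted p = 5.04e-14). Run spans held 722 MR washout peaks, and 46 spans (14.5%) held none. In 140 runs (44.2%) washout peaks overlapped under 25% of the MR peaks, and in 8 runs at least 75%. The whole MR list was also shorter after washout, with 4885 peaks against 14638 after CORT.

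GR washout peaks were few everywhere and their excess in runs rested in part on the input-rich runs. They overlapped 53 run peaks (2.59%, 1.98 to 3.37) and 119 others (0.978%, 0.818 to 1.17), against 1.21% of all MR peaks, with an odds ratio of 2.69 (Fisher's exact test, adjusted p = 5.26e-08). Of the 55 GR washout peaks in run spans, 21 lay in the 3 input-rich runs and 34 in 30 other runs. Without the 10 runs that held a vehicle peak or an input border pair, the share was 1.58% and the odds ratio 1.63 (Fisher's exact test, adjusted p = 0.0278). The same step left the odds ratio of GR after CORT at 1.79 and of MR washout at 1.46. No GR washout peak was listed in 284 spans (89.6%).

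Runs held fewer GREs per peak. A GRE was found at 649 run peaks (31.7%, 29.7 to 33.8) and at 5065 others (41.6%, 40.8 to 42.5), with an odds ratio of 0.651 (Fisher's exact test, adjusted p = 3.13e-17). Matches without a mismatch made up 0.195% of run peaks and 0.164% of the others. Those with 1 mismatch made up 1.03% and 2.06%, and those with 2 mismatches 6.11% and 10.1%. The GRE shares of 31.7% and 41.6% both stood above the 14.6% and 15.2% of the flanking windows. In 193 runs (60.9%) at least 2 peaks had a GRE, in 85 runs 1 peak had it, and in 39 runs (12.3%) none did. The AP-1 motif TGANTCA, counted on both strands in the same windows, was at 9.33% of run peaks (8.15 to 10.7) and 10.3% of the others (9.77 to 10.9), intervals that overlap.

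The shares changed with the size of the chain, as the plot of shares by chain size shows. GR overlapped 38.8% of MR peaks that stood alone, 48.6% of pairs, 58.6% in runs of 5 to 6 and 63.7% (58.1 to 68.9) in runs of 10 or more. For MR washout the same steps were 20.3%, 25.8%, 29.7% and 34.7% (29.5 to 40.2). GREs were at 45.2% of single peaks, 39.2% of pairs, 33.7% (30.9 to 36.5) in runs of 5 to 6, 28.4% (25.1 to 32.0) in runs of 7 to 9 and 31.7% (26.7 to 37.1) in runs of 10 or more. Without the 3 input-rich runs, the GRE share was 33.9% in runs of 5 to 6 and 34.0% (28.8 to 39.8) in runs of 10 or more, so that it was lower in runs than at single peaks but did not fall steadily with the size of the run. The same step left GR at 58.4% (55.5 to 61.3) and 62.8% (57.0 to 68.2), and MR washout at 29.4% (26.7 to 32.1) and 32.3% (27.1 to 37.9), intervals that overlap in both cases. Just outside the rule, chains of 4 had 53.2% with GR, 26.0% with MR washout and 36.3% with a GRE, and just inside it runs of 5 had 59.2%, 29.2% and 34.2%.

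**Figure D2:**
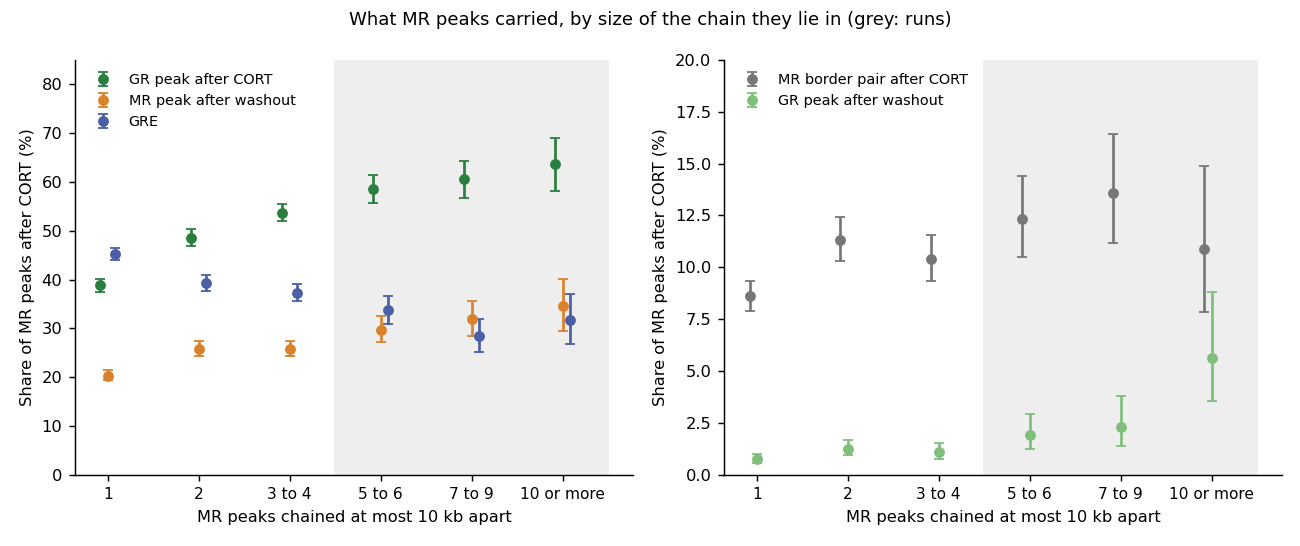
Share of MR peaks after CORT, in %, that overlapped a GR peak after CORT, an MR washout peak, an MR border pair or a GR washout peak or held a GRE, by number of MR peaks chained at most 10 kb apart, with 95% Wilson intervals. From single peaks to runs of 10 or more the GR share is 38.8% and 63.7%, while the GRE share is 45.2% and 31.7%. Grey marks runs.

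The differences were also found among peaks of like strength. The median −log10 p was 9.17 both in runs and outside, with upper quartiles of 13.4 and 11.98, and the median peak width was 72 bp in runs and 61 bp outside. Over 5 groups of MR peaks of like −log10 p, the Mantel-Haenszel odds ratio was 1.79 (95% interval 1.61 to 1.99) for GR after CORT, 1.36 (1.21 to 1.53) for MR washout and 0.632 (0.571 to 0.699) for a GRE. Among the weakest MR peaks, GR overlapped 33.1% in runs and 25.4% outside, and a GRE was at 22.2% and 38.5%. Among the strongest, GR overlapped 90.6% and 81.3%, MR washout 67.0% and 58.4%, and a GRE was at 41.7% and 47.9%. The GRE shares thus stood closest together in the strongest group, and the intervals of that group touch.

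**Figure D3:**
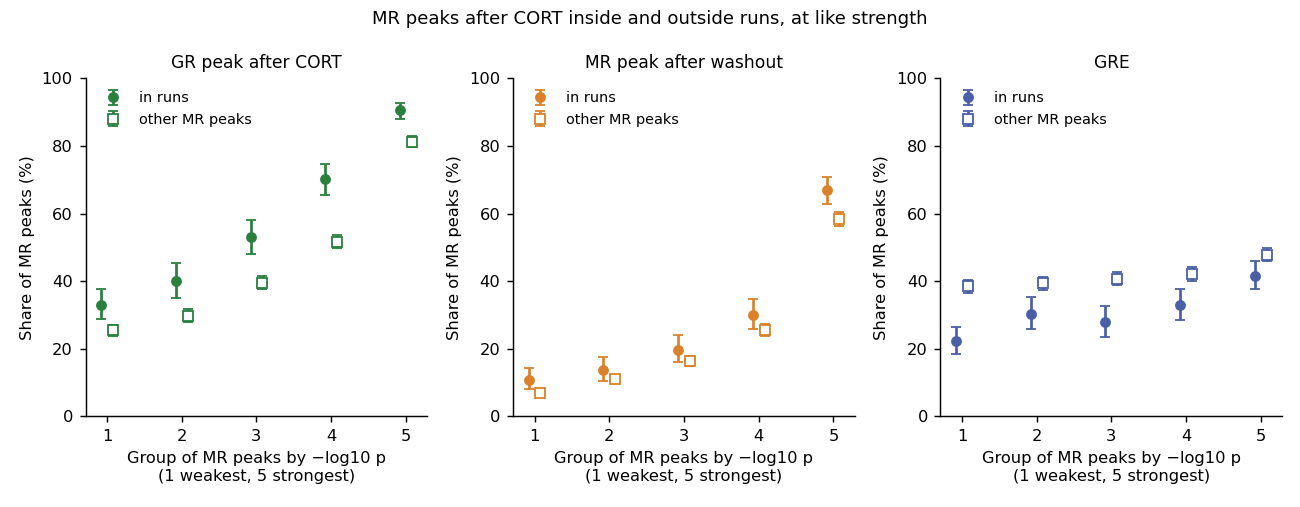
Share of MR peaks after CORT, in %, that overlapped a GR peak after CORT or an MR washout peak or held a GRE, in 5 groups of like −log10 p from weakest to strongest, with 95% Wilson intervals. Filled points are peaks in runs and open squares the other MR peaks. GR overlap is higher in runs in every group and the GRE share lower, 22.2% against 38.5% in the weakest group.

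Peaks of 1 run are not independent, since they share a locus. With standard errors clustered on the run, the odds ratio of 1.82 for GR had a 95% interval of 1.64 to 2.02, that of 1.50 for MR washout 1.33 to 1.69, and that of 0.651 for a GRE 0.583 to 0.726. With 1 peak per stretch of 500 bp, 106 runs with 634 peaks were left. There GR overlapped 60.3% of run peaks and 46.1% of the others, MR washout 35.6% and 24.8%, and a GRE was at 37.7% (34.0 to 41.5) and 43.0% (42.1 to 43.9; odds ratio 0.803, Fisher's exact test, adjusted p = 0.00929). The odds ratios for GR and MR washout were then 1.77 and 1.68, and that for a GRE stood nearer to 1.

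The GRE share was lower where another summit stood close, inside and outside runs. Among run peaks with another summit within 500 bp, 29.7% (27.2 to 32.3) held a GRE, against 34.8% (31.6 to 38.1) of run peaks without one. Outside runs the shares were 35.4% (33.7 to 37.1) and 43.8% (42.7 to 44.8). Run peaks more often had such a neighbour, 60.1% of them against 25.4% of the others.

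Within a run the strongest peak had the highest share of overlap with the other lists and of GREs. Ranked by −log10 p, the strongest peak of each of the 317 runs overlapped GR in 284 (89.6%, 85.7 to 92.5) and MR washout in 208 (65.6%, 60.2 to 70.6), and had a GRE in 135 (42.6%, 37.3 to 48.1). For the second these shares were 75.1%, 42.9% and 37.9%. For the weakest they were 37.2%, 15.5% and 21.5%. A GRE was thus at fewer than 50% of even the strongest peaks. In runs of 5 the fifth peak is also the weakest.

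**Figure D4:**
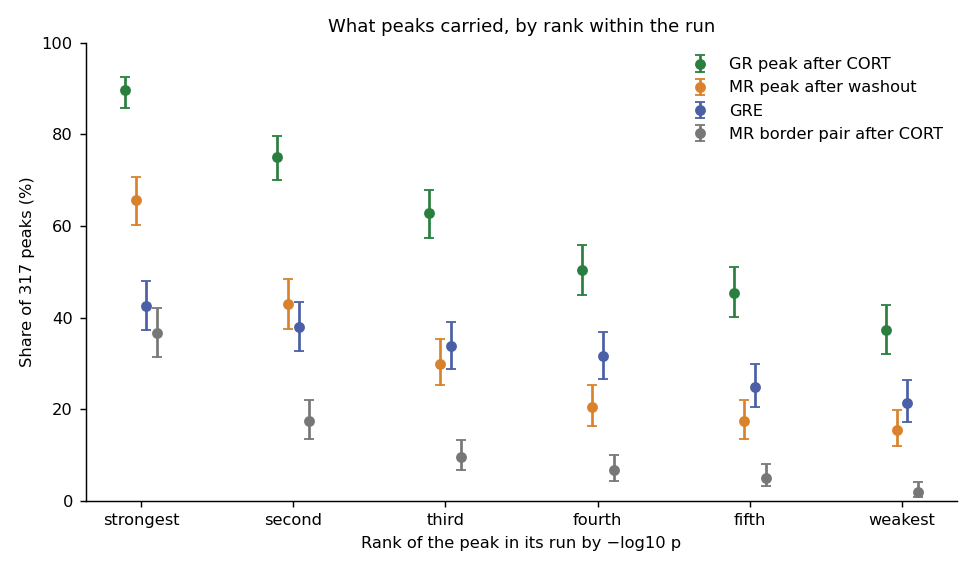
Share of peaks, in %, that overlapped a GR peak after CORT, an MR washout peak or an MR border pair or held a GRE, by rank of the peak in its run by −log10 p (317 peaks per rank), with 95% Wilson intervals. All 4 shares are highest at the strongest peak, with GR at 89.6% and MR washout at 65.6%, and lowest at the weakest, with 37.2% and 15.5%.

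In a receptor pulldown, border pairs called by MACE mark the exonuclease stops on both sides of a bound protein and locate it more finely than a peak. An MR border pair after CORT lay at 256 run peaks (12.5%, 11.1 to 14.0) and 1190 others (9.78%, 9.27 to 10.3), and at 10.2% of all MR peaks. The odds ratio was 1.32 (Fisher's exact test, adjusted p = 0.000281), but at like −log10 p it was 1.12 (0.958 to 1.31; adjusted p = 0.16 in the Mantel-Haenszel test), so the difference did not hold up against peak strength. After washout, an MR border pair lay at 4.84% (3.99 to 5.85) of run peaks and 3.03% (2.74 to 3.35) of the others. This difference after washout was not tested, nor set against peak strength. By rank, a border pair after CORT was at 36.6% of the strongest peaks and 1.89% of the weakest. Border pairs of the CORT input lay at 14 run peaks (0.684%, 0.408 to 1.14) and 25 others (0.205%, 0.139 to 0.303), and at 0.274% of all MR peaks, with an odds ratio of 3.34 (Fisher's exact test, adjusted p = 0.000687). With errors clustered on the run that adjusted p was 0.0561, and without peaks that overlapped a vehicle peak no run peak had an input border pair.

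A larger share of MR peaks was found after washout where GR also had a peak after CORT, inside runs and outside. In runs, 549 of 1227 MR peaks with a GR peak overlapped MR washout (44.7%, 42.0 to 47.5), against 89 of 820 without one (10.9%, 8.90 to 13.2). Outside runs the shares were 38.5% (37.3 to 39.8) and 10.5% (9.82 to 11.3). Peaks with a GR partner were stronger, with a median −log10 p of 11.7 against 7.83 in runs, and the part of strength in this was not tested here. The GRE share of run peaks was 35.0% (32.3 to 37.7) with a GR peak and 26.8% (23.9 to 30.0) without. Outside runs it was 43.4% and 40.2%.

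**Figure D5:**
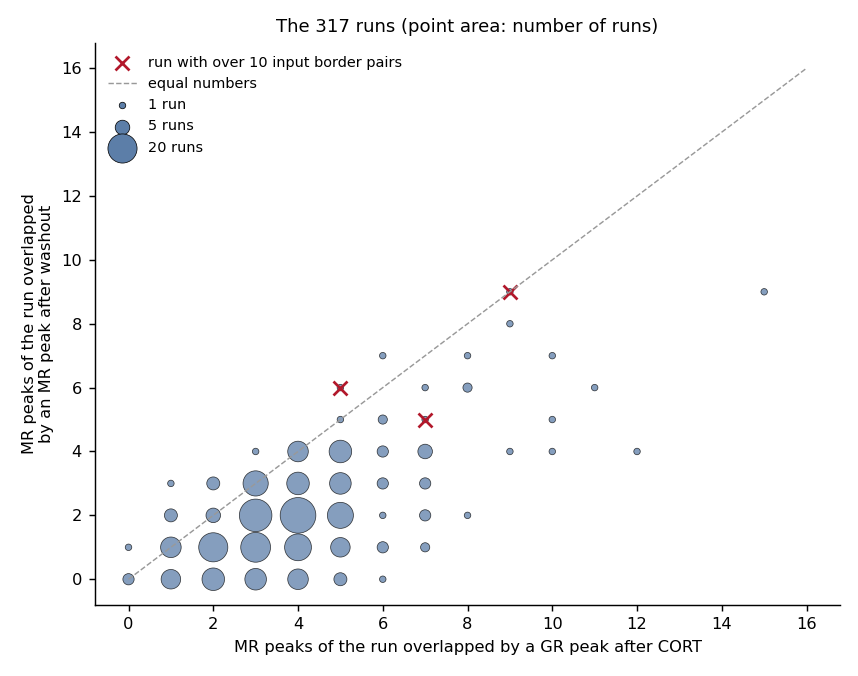
Number of MR peaks of a run overlapped by an MR washout peak against the number overlapped by a GR peak after CORT, for the 317 runs, where the point area gives the number of runs at that position and the dashed line marks equal numbers. Most runs lie below the line, and the run farthest to the right, near Irf2bp2, has 15 peaks with GR and 9 with MR washout. Crosses mark the 3 runs with over 10 input border pairs.

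Runs differed widely in what was left after washout. Among runs of 6 or more peaks, those with the highest shares were 2 of the input-rich runs, at Gm10800 (6 of 6) and Gm21738 (9 of 10), and a run of 7 peaks over the noncoding 5330439M10Rik (chr10:118103887-118122167). In that last run 6 of 7 peaks overlapped MR washout, all 7 overlapped GR, and no vehicle peak or input border pair was found. Its strongest peak had a −log10 p of 46.0 after CORT. At the low end, MR washout overlapped no peak of the runs in Wdr25 (10 peaks, chr12:108946606-108960326), in Maco1 (8 peaks, chr4:134812533-134815243) and beside Gm44442 (8 peaks, chr6:99910029-99932674).

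These runs without an MR washout overlap were not without GR or strong peaks. In Wdr25 GR overlapped 6 of 10 peaks, in Maco1 5 of 8 and beside Gm44442 2 of 8. The strongest MR peak had a −log10 p of 16.5 in Wdr25 and 23.7 in Maco1, and that Maco1 peak overlapped GR. The Maco1 span did hold 1 MR washout peak, between the MR peaks listed after CORT. A GRE was at 1 of 10 peaks in Wdr25, 1 of 8 in Maco1 and 2 of 8 beside Gm44442.

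The runs in which GR overlapped every MR peak, with 6 or more peaks, included those over 5330439M10Rik, near Psma6 and in Sh3rf1, the gene of a ubiquitin ligase of the JNK pathway (chr8:61379504-61391330), with 7 peaks each. MR washout overlapped 3 of 7 peaks both near Psma6 and in Sh3rf1. The lowest shares were beside 9530026P05Rik and Gm44224 (0 of 6 peaks, chr6:93063594-93075234), near Ccdc3 (1 of 7, chr2:5234264-5237529) and near Arid1b, the gene of a subunit of the BAF chromatin remodeller (1 of 6, chr17:5352925-5356606). The span of the run beside 9530026P05Rik and Gm44224 did hold 2 GR peaks, but these overlapped none of its MR peaks. MR peaks there and near Ccdc3 were weak, with a highest −log10 p of 9.82 and 11.98, and the highest near Arid1b was 18.0. A GRE was nevertheless at 4 of 7 peaks near Ccdc3. Of these 4, 1 overlapped the GR peak, and no GR peak was detected at the others at this depth.

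GR washout peaks were most numerous in the 3 input-rich runs, with 8 over Gm21738, 7 on chromosome 9 and 6 at Gm10800. Next came the runs in Mfhas1 (chr8:35628401-35662553) and near Anapc16 (chr10:59969833-59979397), which encodes a subunit of the anaphase-promoting complex, with 2 each, as many as in the runs at Nfkbia and Srp9. Near Anapc16 GR overlapped 7 of 9 MR peaks and MR washout 4, and both GR washout peaks lay on MR peaks that were also in the GR list after CORT and the MR washout list. One of these was the peak with the complete GRE printed above. The span also held 1 MR peak after vehicle, with its summit inside that same peak.

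Genes of axon guidance, a list of 38 ligands and receptors, were drawn on for their place in neuronal development. Of 16 with an MR peak within 5 kb, 3 had a run (18.8%), where 5.43% of the 4455 coding genes with an MR peak had one. Long genes offer more room for a run, and the listed genes with a peak had a median length of 144 kb, against 41.5 kb over all such genes. Slit3, which encodes a secreted ligand of Robo receptors, held 3 runs with 35 peaks within 115 kb. GR overlapped 7 of 14, 10 of 13 and 3 of 8 of their peaks, and MR washout 4, 7 and 1. In the first of these runs the 4 peaks with MR washout stood side by side, 11.2 to 11.97 kb from the start of the run.

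Unc5b, the gene of a netrin receptor, had a run of 6 intronic peaks (chr10:60789401-60822066), and the 3 strongest overlapped both GR and MR washout while the 3 others overlapped neither. Slit1 had a run of 5 intronic peaks (chr19:41657055-41674669) with 1 GR overlap, no MR washout overlap and a GRE at 3. The median −log10 p of the Slit1 peaks was 9.05, near the 9.17 of all run peaks, and that of the Unc5b peaks 15.9. The highest was 11.5 in Slit1 and 31.0 in Unc5b.

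Of 17 glucocorticoid-regulated genes with an MR peak, from a list of 29, Fkbp5 and Nfkbia had a run (11.8%). No run was found at the 9 transcription factor genes of sympathetic neuroblasts with an MR peak, from a list of 21, nor at the 14 ribosomal protein genes with one, whose median length was 3.22 kb. Counts this small, 2 of 17, 0 of 9 and 0 of 14 against 5.43% of all coding genes with a peak, do not set the lists apart from other genes.

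A gene was overlapped or within 5 kb for 263 of the 317 runs (83.0%, 78.4 to 86.7), and a coding gene for 218 (68.8%). Run spans are wider than single peaks, and these shares were not set against spans of like width elsewhere. Coding genes with a run had a median length of 63.9 kb. Within the runs, 1202 summits (58.7%) lay in introns, 132 (6.45%, 5.46 to 7.60) in exons and 713 (34.8%) in no gene. The other MR peaks had 56.9%, 8.10% (7.62 to 8.59) and 35.0%. Within 1 kb of a coding transcript start lay 6.74% (5.73 to 7.91) of run peaks and 10.7% (10.1 to 11.2) of the others. Most run peaks thus lay in introns or between genes, and the intervals of the shares near a start did not overlap.

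Runs were found on 20 chromosomes and were not spread evenly. The only run on chromosome 14 was the input-rich run over Gm21738. Chromosome 2 had 46 and chromosome 8 had 44, followed by 30 on chromosome 7. Of the 14213 MR peaks, these chromosomes held 1499, 1251 and 914. On chromosome 8, 26.1% of the MR peaks were in runs, against 19.9% on chromosome 2, 18.1% on chromosome 7 and 14.4% over all. The CORT input had 9.57 border pairs per Mb on chromosome 8, where the next chromosome, 13, had 2.86. Around runs, within 250 kb to each side, the input had 2.58 border pairs per Mb, against 1.94 over all these chromosomes. The part of DNA copy number in the count of runs was not tested. Without chromosome 8 the odds ratios were 1.82 for GR, 1.44 for MR washout and 0.640 for a GRE.

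The same rule applied to the other lists gave fewer runs. In the GR list after CORT 152 runs held 975 peaks (9.48% of 10289), and they overlapped 119 of the MR runs (37.5%), which is 118 of the GR runs (77.6%). The MR washout list gave 34 runs, of which 28 overlapped 28 MR runs (8.83%). The GR washout list gave 3, each on an input-rich run, and none elsewhere. These lists are shorter, so fewer runs follow from their length as well, and the numbers are given side by side only.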

How the data were processed

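The runs, gene lists and comparisons were chosen with earlier results of these data known. The authors aligned quality-trimmed reads with Bowtie 2 to mm10 (GRCm38), dropped duplicates that shared a barcode, and kept a mapping quality above 20. The submitters' processing notes name MACS2 2.1.1.20160309, run at a false discovery rate of 0.05 against input. The version of Bowtie 2 is not given in the sources used here. The deposited peak files hold a score and, as −log10 values, the p and q of each peak. Their headings are shifted, with −log10 q under the heading for fold enrichment and the summit offset under that for q. The deposited border pairs carry a p-value given by MACE, which was not used. Border pairs of MR after CORT and after washout and of the CORT input were read, and the other border pair lists were not used here.

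From these files, summits were chained, peaks overlapping by at least 1 bp were matched, and GREs were counted in GRCm38 sequence from RefSeq. Genes were those of GENCODE M21. Shares were compared by two-sided Fisher's exact tests, adjusted over 6 shares, with a threshold of 0.05. The text names the 15 runs with the most peaks, of which 1 is not reported here, the 3 highest and 3 lowest runs of 6 or more peaks by share overlapped by MR washout and by GR after CORT, up to 5 runs by GR washout peaks, and every listed gene with a run within 5 kb. Alternatives changed the distance, the number of peaks, the threshold, the overlap and the GRE. Scripts were tested on simulated data. Python 3.11.15, numpy 2.4.6, pandas 2.3.3, scipy 1.17.1, statsmodels 0.14.6, pysam 0.24.0 and matplotlib 3.10.9 were used.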

Additional observations from a re-analysis of the deposited data

How the results depend on the processing

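The number of runs followed the rule closely. The 317 runs became 183 with summits at most 5 kb apart, 486 at 20 kb, 588 with at least 4 peaks, 171 with at least 6, 88 with −log10 q of at least 5, and 106 with 1 peak per 500 bp. The odds ratios for GR after CORT were 1.24 to 2.28 over 14 alternatives, for MR washout 1.33 to 1.75 over 14, for GR washout 1.63 to 3.49 over 14, and for a GRE 0.563 to 0.803 over 15, each with an adjusted p under the threshold of 0.05. The lowest values for GR after CORT and for MR washout came with summits at most 50 bp apart. The odds ratio for an MR border pair, 1.32 by Fisher's exact test, was 1.12 over groups of −log10 p (Mantel-Haenszel test, adjusted p = 0.16). For a CORT input border pair it was 1.73 at 20 kb (Fisher's exact test, adjusted p = 0.133), 3.34 with errors clustered on the run (adjusted p = 0.0561), and 0 without peaks that overlapped a vehicle peak. A gene lay near 83.0% of runs, a coding gene near 68.8%, and a gene overlapped 77.3%. Leaving out runs with a vehicle peak or input border pair, leaving out chromosome 8 and taking 1 peak per 500 bp were chosen after seeing the data. Beyond what the constructions themselves fix, the cause of these changes was not tested. With 1 list per condition, no replicate could be left out, and depth limits which weak peaks were listed.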

Other observations

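Runs often came in groups. Of the 317 runs, 89 (28.1%) lay within 100 kb of another, in 41 groups of 2 or 3. The 7 groups of 3 included those in Slit3, at the end of Myo16 and beyond it, and around Disc1 and Sipa1l2. The rest lay at and beyond Unc5b, near Dlk1, in and beside Pcbp3, and near Ptpn1. The group near Dlk1, an imprinted gene that encodes a surface protein, held 21 MR peaks in 113 kb. Its run spans held 16 GR peaks after CORT and 6 MR washout peaks. The group at Unc5b also held 21 MR peaks, with 15 GR and 10 MR washout peaks. The genes in this paragraph and the next were picked after their values were seen.

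Of 242 coding genes with a run within 5 kb, 19 had 2 or more. Slit3, Camk1d and Pcbp3 had 3. Camk1d, the gene of a calcium/calmodulin-dependent kinase, had 24 MR peaks within 5 kb, 10 GR peaks and 8 MR washout peaks. Pcbp3, which encodes an RNA-binding protein, also had 24 MR peaks, with 12 GR and 10 MR washout peaks. Rara encodes the retinoic acid receptor alpha, itself a nuclear receptor. At 47.1 kb it was the shortest but 1 of these 19 genes, and it held 19 MR, 15 GR and 6 MR washout peaks and 1 GR washout peak. Rere, the gene of an arginine-glutamic acid repeat protein, had 25 MR peaks and 18 GR peaks but 4 MR washout peaks.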
